A study of Mus musculus with 24 samples.

Results

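The 5668 EBF1 peaks described here lay between genes, more than 1 kb and at most 100 kb from the nearest gene start, and made up 32.9% of the 17230 peaks in the list. A peak belonged to them if its centre fell outside every gene of the count table that came with the RNA data, and each was linked to the gene with the nearest start. The peaks come from chromatin immunoprecipitation of EBF1 in 230-238, a mouse pre-B cell line, with 2 EBF1 samples and 1 input that the authors merged into a single list of reproducible peaks, so no peak has a value per sample. RNA had been sequenced from fetal liver cells of C57BL6/J mice, grown over OP9 stromal cells in IL-7 and the ligands of KIT and FLT3, then infected with the retrovirus pMiG. The groups compared were Ebf1-deficient cells with empty vector (Ebf1_KO+pMiG) against wild-type cells with empty vector (WT+pMiG), Ebf1-deficient cells with an Ebf1 vector (Ebf1_KO+pMiG-Ebf1) against Ebf1_KO+pMiG, and Pax5-deficient cells with the Ebf1 vector (Pax5_KO+pMiG-Ebf1) against Pax5_KO+pMiG. Each group had 2 libraries, and cells of every group carried the vector backbone. Cells of the same deficiencies with a Pax5 vector entered the shared estimate of spread and no comparison. Contacts of chromatin that carries the promoter mark H3K4me3 were sequenced by PLAC-seq in 4 Ebf1-deficient and 3 wild-type samples, pooled by the authors to 1 contact profile of the Myc promoter per genotype.

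EBF1, early B cell factor 1, is a DNA-binding protein without which B-cell development stops early. It binds at gene starts and also far from them, where enhancers lie. Enhancers can act on a gene over long distances and can skip the closest one, so the link to the nearest start is a convention and no measure of contact. The line 230-238 had peaks but no RNA library, so its label could not be set against marker genes, and the peaks and the RNA come from different cells.

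Of the 5668 peaks, 3987 (70.3%) lay upstream of the linked start and 1681 lay downstream of it, past the end of the gene. Peaks inside genes are left out by the rule, so it favours the upstream side, most of all close to the start. The split is therefore no measure of where EBF1 binds. The median distance was 19.6 kb, with quartiles of 8.34 and 40.5 kb. There were 853 peaks over 1 to 5 kb away, 827 over 5 to 10 kb, 1630 over 10 to 25 kb, 1308 over 25 to 50 kb and 1050 over 50 to 100 kb. The authors' peak score, a value of HOMER's findPeaks, had medians between 42 and 44.5 in these 5 distance bins. Its median was 44 over all the peaks between genes, against 36 for the 3752 peaks within 1 kb of a start, 44 for the 6725 peaks inside genes and 41 for the 1082 peaks between genes over 100 kb away. The authors' fold over the input had a median of 13.84 in the peaks between genes, against 8.07 in those within 1 kb of a start and 13.84 in those inside genes. The peaks between genes held 41 of the 100 highest scores of the list, where they made up 32.9% of all peaks. At the inner limit of the rule, 30 peaks between 1.0 and 1.1 kb had scores of 19 to 217, against 21 to 303 for 40 peaks between 0.9 and 1.0 kb. At the outer limit, 61 peaks between 95 and 100 kb had scores of 21 to 273, against 19 to 343 for 59 peaks between 100 and 105 kb.

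**Figure D1:**
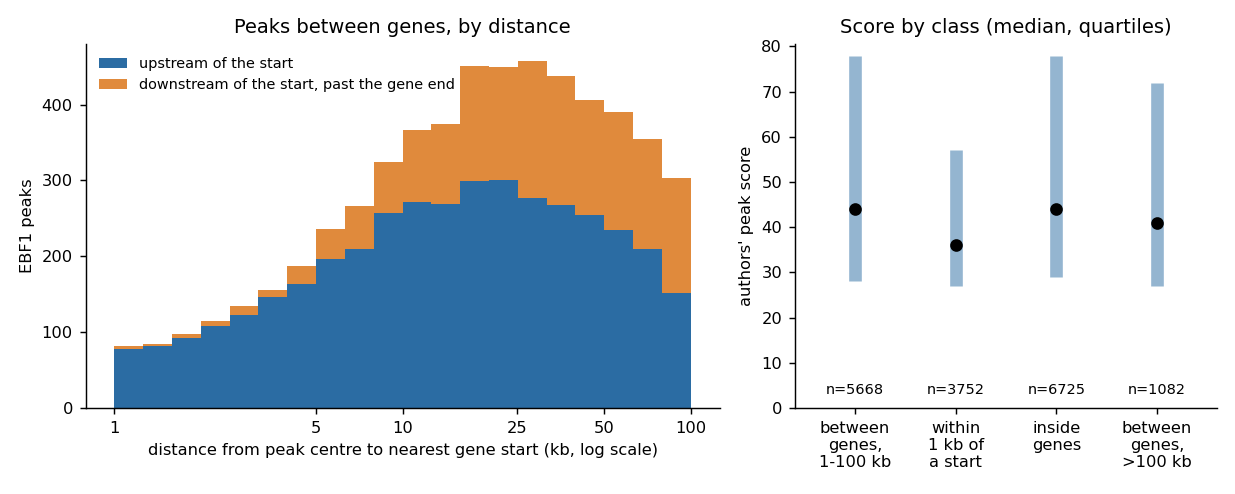
Left, number of EBF1 peaks between genes by distance to the nearest gene start in kb (log scale), stacked by side, with the upstream peaks at the bottom. Right, the authors' peak score by class of peak (points, medians; bars, lower to upper quartile). Nearly all peaks close to 1 kb lay upstream, while close to 100 kb both sides held similar numbers, and the median score was 44 in the peaks between genes and 36 within 1 kb of a start. The rule leaves out peaks inside genes, which favours the upstream side close to the start.

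The peaks were linked to 3458 genes, of which 2977 were protein-coding and 434 non-coding RNA genes. A single peak was linked to 2267 of these genes, 691 had 2, 373 had 3 or 4 and 127 had 5 or more. Another peak between genes lay within 12.5 kb for 2388 of the peaks (42.1%), and these formed 979 clusters. The cluster with most peaks, 10 over 71.3 kb, was linked to Lrrc32, which encodes GARP, a cell-surface carrier of latent TGF-beta. A peak at the start or inside the gene was also present in 1595 of the linked genes and in none of the other 1863. The genes of the count table are 1 transcript model each, and by the wider RefSeq annotation of GRCm38.p6, 1552 of the peaks (27.4%) fell inside a RefSeq gene, 439 of them inside the RefSeq gene of their own linked symbol, while 274 (4.83%) were within 1 kb of a RefSeq start. The other 4038 (71.2%) were outside both.

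Sequence could be read where a peak overlapped a RefSeq promoter window, the 300 bases from 250 before to 50 after a start, which was the case for 131 of the peaks. For 36 of them the window was that of their own linked gene, at a start that the count table's model does not use. The palindromic core of the EBF1 motif, CCCNNGGG, was searched in these windows, and since it reads the same on both strands each match was counted once. It occurred in 30 of the 85 windows with at least 150 bases in a peak between genes (35.3%, exact 95% binomial interval 25.2 to 46.4%). The share was 37.1% of 1079 windows in peaks within 1 kb of a start and 45.8% of 59 windows in peaks inside genes. Over all 32815 RefSeq windows it was 13.7%. The longer form TCCCNNGGGA, which contains the core, occurred in 8 of the 85 (9.41%, interval 4.15 to 17.7%). In the same order it occurred in 5.28%, 13.6% and 0.905%. A match could lie in the part of a window outside the peak. These windows lie at RefSeq starts and do not stand for the other peaks between genes. The following stretches, from the RefSeq promoter table of build GRCm38.p6, are the parts of 6 peaks inside such windows, written 5′ to 3′ on the strand given, with the core in capitals. The first 4 carry the longer form, the fifth lies at a RefSeq start of its linked gene Cplx2, whose levels are described further on, and the sixth is shown as a peak with a score of 159 and no core. The choice followed the motif and not the score alone, so these stretches do not stand for the rest. Most stretches read held no core, among them the one in the peak with the highest score, 186, which is not printed.
chr10:78092831-78093077 (-, Gm30039): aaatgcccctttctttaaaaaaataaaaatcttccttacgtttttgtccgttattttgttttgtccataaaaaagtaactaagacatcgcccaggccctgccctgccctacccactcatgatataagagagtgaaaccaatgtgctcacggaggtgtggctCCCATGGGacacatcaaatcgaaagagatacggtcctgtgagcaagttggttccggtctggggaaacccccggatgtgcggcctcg
chr2:167777265-167777540 (+, Gm14321): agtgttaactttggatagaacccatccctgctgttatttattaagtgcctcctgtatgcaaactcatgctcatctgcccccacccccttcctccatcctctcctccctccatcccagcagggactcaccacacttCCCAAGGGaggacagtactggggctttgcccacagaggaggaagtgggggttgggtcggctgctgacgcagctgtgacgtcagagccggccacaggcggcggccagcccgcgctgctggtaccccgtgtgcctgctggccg
chr19:29684189-29684388 (-, Gm36126): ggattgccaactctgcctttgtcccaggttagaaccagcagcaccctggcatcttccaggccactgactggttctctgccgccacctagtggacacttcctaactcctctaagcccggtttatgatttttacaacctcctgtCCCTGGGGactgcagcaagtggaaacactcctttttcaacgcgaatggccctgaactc
chr1:160003622-160003844 (-, Gm31493): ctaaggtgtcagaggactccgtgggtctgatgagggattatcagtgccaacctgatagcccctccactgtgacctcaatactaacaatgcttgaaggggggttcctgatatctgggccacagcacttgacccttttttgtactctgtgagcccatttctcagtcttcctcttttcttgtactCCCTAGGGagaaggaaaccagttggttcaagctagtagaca
chr13:54302306-54302476 (+, Cplx2): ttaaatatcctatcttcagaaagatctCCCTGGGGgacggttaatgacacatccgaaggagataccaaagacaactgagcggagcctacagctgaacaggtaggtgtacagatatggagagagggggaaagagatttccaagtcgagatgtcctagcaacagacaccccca
chr6:124738660-124738941 (-, Ptpn6): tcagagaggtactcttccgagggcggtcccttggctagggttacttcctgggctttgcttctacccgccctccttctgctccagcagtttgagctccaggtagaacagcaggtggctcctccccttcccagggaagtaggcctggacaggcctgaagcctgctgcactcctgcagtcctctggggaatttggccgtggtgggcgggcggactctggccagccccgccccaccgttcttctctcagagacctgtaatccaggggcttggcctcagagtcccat
The first stretch, in a peak 23.5 kb downstream of the start of Icosl (the ligand of the T-cell costimulator ICOS) with a score of 168, had its core centred 5 bases from the peak centre. The stretches at Gm14321, Gm36126 and Gm31493 had theirs 21, 14 and 26 bases from the centre of peaks that scored 109, 103 and 62. At Cplx2 the core lay 21 bases from the centre of a peak that scored 63. The last stretch lies at the RefSeq start of Ptpn6, the gene of the phosphatase SHP-1, although the nearest start in the count table was that of Grcc10, 2.3 kb away. Among 94 stretches of at least 100 bases, 23 held the core, with a median score of 49, and 71 did not, with a median score of 40.

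The peak with the highest score of those between genes, 444, was at chr5:136641250-136641570, 51.7 kb upstream of Myl10, with 899 tags in the EBF1 samples against 5.2 in the scaled input. Myl10, which encodes a myosin light chain, had 9 such peaks and was at 20.1 and 24.0 CPM, which are counts scaled to library size, in Ebf1_KO+pMiG cells, against 12.4 and 7.61 CPM in WT+pMiG cells. With the Ebf1 vector it was at 54.4 and 61.7 CPM in Ebf1_KO+pMiG-Ebf1 cells, and neither difference passed edgeR's quasi-likelihood test with Benjamini-Hochberg adjustment over all genes at 0.05, used throughout (adjusted p = 0.12 and 0.16). The next peak, with a score of 406 at chr5:23386981-23387301, lay 47.2 kb past the start of the non-coding 5031425E22Rik in the count table's model and inside its RefSeq gene. The third, with a score of 390 at chr1:180541294-180541614, lay 27.4 kb upstream of Parp1, which encodes a poly(ADP-ribose) polymerase of DNA repair. Parp1 was at 1099 and 1354 CPM in Ebf1_KO+pMiG-Ebf1 cells, against 272 and 429 CPM in Ebf1_KO+pMiG cells, and rose by 1.81 ± 0.30 on the log2 scale (SE, adjusted p = 0.0023). The fourth, with a score of 377 at chr3:87542221-87542541, lay 16.8 kb downstream of the start of Etv3, which encodes an ETS-family repressor. Etv3 was at 88.9 and 105 CPM in Ebf1_KO+pMiG-Ebf1 cells, against 36.2 and 33.4 CPM in Ebf1_KO+pMiG cells, with a log2 fold change of 1.48 ± 0.24 (SE, adjusted p = 0.0021). For both genes the Ebf1_KO+pMiG-Ebf1 libraries lay above both Ebf1_KO+pMiG libraries. Of the other 11 peaks with the highest scores, those near Ppp2r5a, a regulatory subunit of phosphatase 2A, and Pigt, of the anchor-attaching complex of membrane proteins, had linked genes that fell in Ebf1_KO+pMiG cells, with log2 fold changes of -0.97 ± 0.19 (SE, adjusted p = 0.0023) and -0.99 ± 0.28 (SE, adjusted p = 0.024). The Pigt call was lost without either WT+pMiG library and without Ebf1_KO+pMiG replicate 1, with adjusted p up to 0.21. The peak with rank 10, a score of 328, lay 17.6 kb upstream of the actin gene Actb, which stayed uncalled in all 3 comparisons.

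RNA libraries held 16118136 to 42076718 exon counts, and 14550 genes passed the filter on low counts, among them 2607 of the 3458 linked genes (75.4%). The targeted gene does not check the Ebf1 label, since exon counts of Ebf1 were 244 and 282 CPM in Ebf1_KO+pMiG cells, against 966 and 1102 CPM in WT+pMiG cells, and the counts do not show which part was deleted. Summed over 24 early B genes, levels were 177 and 199 CPM in the Ebf1_KO+pMiG libraries, against 9837 to 11107 CPM in WT+pMiG. Markers of other lineages moved too. The 19 myeloid markers summed to 595 to 660 CPM in Ebf1_KO+pMiG, against 40.1 to 45.2 CPM in WT+pMiG with Lyz1, Cebpa, Cebpe, Ctsg and Cd14 at 0. The 15 NK and innate lymphoid markers summed to 405 to 510 CPM against 3.43 to 6.01 CPM with Gzmb, Prf1, Eomes, Tbx21 and Ncr1 at 0. The 11 stroma markers summed to 65.5 to 72.8 CPM against 4.69 to 6.01 CPM with Col3a1, Pdgfra, Vcam1, Lum and Dcn at 0. Only 5 stroma markers passed the filter on low counts, and of these 1 was called higher in Ebf1_KO+pMiG and none lower. In such bulk RNA fewer cells of a type and less RNA per cell cannot be told apart, and the part of these lineages in the results below was not tested.

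Loss of Ebf1 moved linked genes in both directions. Of the 2607 linked genes tested, 349 fell (13.4%, against 6.65% of all genes tested) and 297 rose (11.4%, against 8.02%) in Ebf1_KO+pMiG cells, and the median log2 fold change was -0.06, against 0.03 over all genes. Without Ebf1_KO+pMiG replicate 1, 204 fell and 216 rose (7.47% and 7.91% of the linked genes then tested), without replicate 2 of that group 241 and 197, without WT+pMiG replicate 1 281 and 222, and without WT+pMiG replicate 2 239 and 188. The share of all genes called was not taken with a library left out, here or below. Such counts therefore do not show whether linked genes were still called more often than all genes. Linked genes that fell to 0 or close to it included the surrogate light chain genes Vpreb2 and Vpreb3, Cplx2, which encodes the exocytosis protein complexin 2, and Enpep, the aminopeptidase of the BP-1 antigen. Cplx2 was at 0 in both Ebf1_KO+pMiG libraries, against 586 and 557 CPM in WT+pMiG, at least 9686-fold lower when 3 counts over the group stand for the 0. This fold and the others given as "at least" use counts pooled over the 2 libraries of a group. Vpreb3 was at 0, against 369 and 326 CPM, at least 5909-fold lower, and Vpreb2 at 0, against 75.0 and 63.7 CPM, at least 1180-fold lower. These 3 genes passed the test, with adjusted p between 5.4e-10 and 9.9e-07. Enpep was at 0.0458 and 0.0345 CPM, against 279 and 241 CPM (adjusted p = 1.3e-08), 6628-fold lower by pooled counts with a counting interval of 1834 to 54738. Their peaks included 1 at 1.39 kb from the Vpreb3 start, just past the end of the gene, with a score of 192 and 1 at 10.86 kb upstream of Vpreb2 with a score of 207. Vpreb2 and Vpreb3 had 1 peak between genes each.

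The 8 linked genes with the largest fitted rises were Fyb, Adam11, C1ql2, Espn, Sp7, Cd300lb, Mn1 and Mpeg1, in no fixed order, since the fitted value of a gene at 0 in WT+pMiG depends on the prior count. Adam11, C1ql2, Espn, Sp7 and Cd300lb were at 0 in both WT+pMiG libraries and at least 720-fold, 288-fold, 163-fold, 151-fold and 136-fold higher in Ebf1_KO+pMiG. Fyb, an adaptor of T-cell receptor signalling with 1 peak, which lies inside its RefSeq gene, was at 77.6 and 97.2 CPM in Ebf1_KO+pMiG cells. It was at 0 in both WT+pMiG libraries, so at least 1088-fold higher in Ebf1_KO+pMiG. Mn1, a transcriptional co-regulator of myeloid progenitors, was at 293 and 327 CPM in Ebf1_KO+pMiG, against 0 and 0.286 CPM in WT+pMiG, and had 5 peaks, the strongest with a score of 206 at 42.84 kb past its start. Mpeg1, a pore-forming protein of macrophages, was at 143 and 167 CPM, against 0.104 and 0.0572 CPM, with a peak that scored 21. In the list of receptor signalling genes, the chemokine receptor gene Ccr9 was at 789 and 960 CPM in Ebf1_KO+pMiG, against 2.23 and 1.77 CPM in WT+pMiG, a log2 fold change of 8.76 ± 0.42 (SE, adjusted p = 2.5e-09), and its peak 4.01 kb upstream scored 301. Flt3, the receptor of FLT3 ligand, was at 356 and 399 CPM, against 2.38 and 3.43 CPM, a log2 fold change of 7.02 ± 0.26 (SE, adjusted p = 3.2e-10). Among linked genes of the marker lists, 5 of 7 tested myeloid genes, all 3 NK and innate lymphoid genes and 3 of 5 T-lineage genes rose, beside 13 of 17 myeloid, 11 of 14 NK and innate lymphoid and 11 of 17 T-lineage genes tested of the whole lists. Of these linked genes Hes1, a Notch target, and Il2ra, the interleukin-2 receptor alpha chain, fell, and the rise of the myeloid factor gene Cebpb was lost without WT+pMiG replicate 1 (adjusted p = 0.087).

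When the Ebf1 vector was put into Ebf1-deficient cells, 137 of the 2607 linked genes rose (5.26%, against 2.21% of all genes tested) and 38 fell (1.46%, against 0.763%). In either direction these were 175 linked genes, where 2.97% of all genes tested were called. Of the 137, 102 also had a peak at the start or inside the gene, 7.11% of such linked genes tested. The other 35 had none, 2.99% of those tested. The shares that fell were 1.46% and 1.45%. The median log2 fold change of the linked genes was 0.05, against 0.00 over all genes. One of those that rose was Ebf1 itself, which has 1 such peak and whose counts include the vector. Vpreb2 was at 54.7 and 53.2 CPM in Ebf1_KO+pMiG-Ebf1 cells, against 0 in both Ebf1_KO+pMiG libraries, at least 911-fold higher. Cplx2 was at 7.33 and 10.6 CPM, against 0, at least 159-fold higher, and Vpreb3 at 3.90 and 4.05 CPM, against 0, at least 67.7-fold higher. For Cplx2, Vpreb3 and Vpreb2 every Ebf1_KO+pMiG-Ebf1 value was below both WT+pMiG values given above. Gfra2, which encodes a receptor of neurturin, was at 129 and 174 CPM in Ebf1_KO+pMiG-Ebf1, against 0.320 and 0.380 CPM in Ebf1_KO+pMiG, and rose by 8.73 ± 1.01 on the log2 scale (SE, adjusted p = 1.1e-04). Cd79b, the immunoglobulin-associated beta chain, was at 123 and 129 CPM, against 3.11 and 3.94 CPM, and rose by 5.15 ± 0.26 (SE, adjusted p = 1.5e-08). Kif19a, a kinesin gene, was at 66.1 and 68.2 CPM, against 1.88 and 0.518 CPM, and rose by 5.82 ± 0.86 (SE, adjusted p = 1.0e-03), and it was also low, at 2.07 and 0.343 CPM, in WT+pMiG cells. Among the genes that fell were Il2rb, the interleukin-2 receptor beta chain, at 14.1 and 16.3 CPM in Ebf1_KO+pMiG-Ebf1, against 62.4 and 104 CPM in Ebf1_KO+pMiG (log2 fold change -2.45 ± 0.27, SE, adjusted p = 6.9e-05), and Cd7, a surface protein of T and NK cells, at 7.52 and 5.96 CPM, against 60.3 and 92.1 CPM (log2 fold change -3.50 ± 0.41, SE, adjusted p = 1.2e-04). The 1 peak linked to Il2rb lies inside its RefSeq gene. Marker sums moved beside these falls, in Ebf1_KO+pMiG-Ebf1 against Ebf1_KO+pMiG at 224 to 240 against 405 to 510 CPM for the NK and innate lymphoid markers, 299 to 354 against 595 to 660 CPM for the myeloid and 21.7 to 22.7 against 65.5 to 72.8 CPM for the stroma markers, and their part in the result was not tested. Few single markers were called. Of 14 NK and innate lymphoid markers tested 3 fell and 1 rose. Of 17 myeloid markers 1 fell and none rose, and of 5 stroma markers none was called. This comparison shares the Ebf1_KO+pMiG libraries with the previous one, so opposite signs in the 2 comparisons are not independent. Leaving out any 1 of its 4 libraries left 67 to 96 linked genes that rose, the fewest without Ebf1_KO+pMiG replicate 1, and 8 to 20 that fell, the fewest without Ebf1_KO+pMiG-Ebf1 replicate 1.

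**Figure D2:**
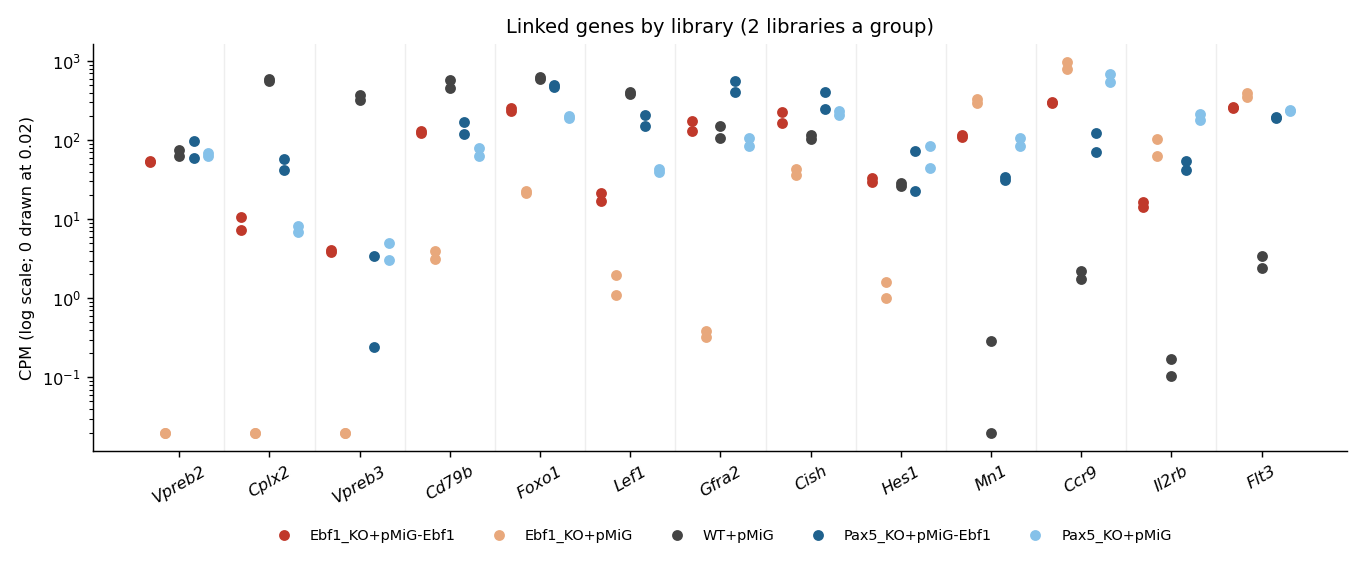
CPM on a log scale of 13 linked genes in the single libraries of 5 groups, with values of 0 drawn at 0.02. Cplx2, Vpreb2 and Vpreb3 sit at 0 in the 2 Ebf1_KO+pMiG libraries, and Mn1, Ccr9, Il2rb and Flt3 sit lowest in the 2 WT+pMiG libraries.

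Exon counts of Ebf1, vector transcripts included, were at 1644 and 1483 CPM in Pax5_KO+pMiG-Ebf1, against 315 and 241 CPM in Pax5_KO+pMiG, close to the 244 and 282 CPM of Ebf1_KO+pMiG. In this Pax5-deficient background 101 of the linked genes rose (3.87%, against 1.75% of all genes tested) and 82 fell (3.15%, against 1.85%), 183 in all, where 3.60% of all genes tested were called in either direction. Of the 101, 84 also had a peak at the start or inside the gene, 5.85% of such linked genes tested. The other 17 had none, 1.45% of those tested, which is below the 1.75% of all genes. The shares that fell were 3.21% and 3.07%. Tusc5, also called Trarg1, a regulator of glucose transporter traffic, was at 13.1 and 40.1 CPM in Pax5_KO+pMiG-Ebf1 and at 0 in both Pax5_KO+pMiG libraries, and the call was lost without Pax5_KO+pMiG replicate 2 (adjusted p = 0.059). Heyl, a Notch-responsive repressor gene, was at 16.3 and 35.2 CPM, against 0.284 and 0.0292 CPM, and rose by 7.48 ± 1.00 (SE, adjusted p = 0.0012). Slc16a14, of a solute carrier family, was at 199 and 124 CPM, against 4.88 and 9.77 CPM, and rose by 4.45 ± 0.60 (SE, adjusted p = 0.0012). Ccr9 fell to 122 and 70.0 CPM in Pax5_KO+pMiG-Ebf1, against 543 and 686 CPM in Pax5_KO+pMiG, a log2 fold change of -2.68 ± 0.31 (SE, adjusted p = 3.3e-04), and Il2rb to 42.3 and 55.0 CPM, against 181 and 213 CPM, a log2 fold change of -2.02 ± 0.27 (SE, adjusted p = 0.0010). The NK and innate lymphoid markers summed to 337 to 432 CPM in Pax5_KO+pMiG-Ebf1, against 610 to 782 CPM in Pax5_KO+pMiG, the myeloid to 335 to 452 against 474 to 508 CPM and the stroma markers to 1.44 to 7.18 against 9.77 to 14.4 CPM, and their part in these falls was not tested. Singly, 3 of 14 NK and innate lymphoid markers tested fell and 1 rose. None of 17 myeloid markers was called, and 1 of 5 stroma markers fell. The 2 Pax5_KO+pMiG-Ebf1 libraries agreed less than those of other groups, with a correlation of log2 CPM of 0.895 against up to 0.971. Without its replicate 2 there were 179 linked genes that rose and 303 that fell, without Pax5_KO+pMiG replicate 2 23 and 28, and without the unnumbered Pax5_KO+pMiG library 55 and 62.

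The 2 comparisons with the Ebf1 vector share no libraries. Of the linked genes, 56 rose in both, which is 40.9% of those that rose in Ebf1-deficient cells and 55.4% of those that rose in Pax5-deficient cells. Another 15 fell in both, 39.5% and 18.3% of those that fell. Over all genes tested, 128 rose in both, 39.9% and 50.2% of those that rose, and 44 fell in both, 39.6% and 16.4% of those that fell, so the shares of the linked genes were near those of all genes. Genes that rose in both included Cplx2, Cd79b, Foxo1, Lef1, Myb, Ccnd3, Etv3, Heyl, Adamts7 and Tusc5, and genes that fell in both included Ccr9, Il2rb, Cd7, Mn1 and Mycn. Several of these calls were lost when 1 library was left out. In Ebf1-deficient cells this held for Myb without any 1 library except Ebf1_KO+pMiG-Ebf1 replicate 1 (adjusted p up to 0.14), for Mn1 and Ccr9 without any 1 except Ebf1_KO+pMiG replicate 1 (up to 0.13 and 0.091), for Mycn without Ebf1_KO+pMiG-Ebf1 replicate 1 (0.069) and for Tusc5 without Ebf1_KO+pMiG replicate 2 (0.057). In Pax5-deficient cells it held for Myb, Etv3 and Ccnd3 without either Pax5_KO+pMiG library (adjusted p up to 0.098, 0.100 and 0.15), for Mn1 and Adamts7 without Pax5_KO+pMiG replicate 2 (0.10 and 0.075) and for Mycn without the unnumbered Pax5_KO+pMiG library or Pax5_KO+pMiG-Ebf1 replicate 1 (up to 0.11). Opposite calls were found for Cd72, Chst15, Ifitm1 and Tnfrsf13c, named after their values were seen, which rose in Ebf1-deficient and fell in Pax5-deficient cells. The test of the difference itself, the vector effect in Ebf1-deficient minus that in Pax5-deficient cells, called 35 linked genes with a larger value in Ebf1-deficient cells (1.34%, against 0.577% of all genes tested) and 2 with a smaller one (0.0767%, against 0.0344%), where 0.612% of all genes tested were called in either direction. Without Pax5_KO+pMiG-Ebf1 replicate 2 these became 157 and 22, and without Ebf1_KO+pMiG replicate 1, where the total was lowest, 17 and 2.

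On loss of Ebf1, genes with more linked peaks were called more often in both directions. In Ebf1_KO+pMiG against WT+pMiG, 11.0% of tested genes with 1 peak fell, 16.4% with 2, 18.4% with 3 or 4 and 24.0% with 5 or more. In the same order, 10.6%, 12.1%, 13.2% and 15.6% rose. With the Ebf1 vector in Ebf1-deficient cells 3.08%, 7.85%, 10.8% and 12.5% rose, and 1.30%, 1.12%, 2.78% and 2.08% fell. In Pax5-deficient cells 2.84%, 4.67%, 7.99% and 5.21% rose, and 2.78%, 4.11%, 3.12% and 4.17% fell. The median level in WT+pMiG went with the number of peaks, at 18.7, 23.2, 29.2 and 52.0 CPM, and its part in these shares was not tested. By distance, 14.1% of tested genes fell on loss of Ebf1 where the nearest peak between genes was at 1 to 10 kb, 12.9% at 10 to 50 kb and 12.1% at 50 to 100 kb, and with the Ebf1 vector in Ebf1-deficient cells 5.89%, 4.91% and 3.57% rose. In these distance bins 10.3%, 12.4% and 12.1% rose on loss of Ebf1. Falls with the Ebf1 vector were 1.23%, 1.55% and 2.23% in Ebf1-deficient cells. In Pax5-deficient cells 4.58%, 3.28% and 3.12% rose with the vector, and 3.19%, 2.93% and 4.02% fell. By the best score of a gene's peaks, 11.6% fell with a score under 50, 13.1% with 50 to 99 and 17.3% with 100 or more, and with the Ebf1 vector in Ebf1-deficient cells 3.47%, 5.04% and 8.98% rose. In these score bins 10.3%, 11.3% and 13.7% rose on loss of Ebf1. Falls with the Ebf1 vector were 1.13%, 1.63% and 1.89% in Ebf1-deficient cells. In Pax5-deficient cells 3.23%, 3.95% and 5.04% rose with the vector, and 2.02%, 3.95% and 4.41% fell. Where the gene also had a peak at its start or inside, 17.2% fell and 11.7% rose on loss of Ebf1, at a median of 37.9 CPM in WT+pMiG. Where it had none, 8.70% fell and 11.0% rose, at a median of 8.62 CPM. The starts nearest to peaks inside genes gave 13.3% that fell and 10.7% that rose, and those within 1 kb of a peak 10.2% and 5.72%. With the Ebf1 vector 5.16% and 3.53% of these 2 sets rose in Ebf1-deficient cells, and 3.72% and 2.82% in Pax5-deficient cells. The shares that fell were 1.05% and 0.740% in Ebf1-deficient cells, and 2.46% and 1.88% in Pax5-deficient cells. Among 299 tested genes with the nearest start to a peak between genes over 100 kb away, 18.1% fell and 10.7% rose. With the Ebf1 vector in Ebf1-deficient cells 6.69% of these genes rose and 2.34% fell. These shares are descriptions, without a test of the differences between them.

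**Figure D3:**
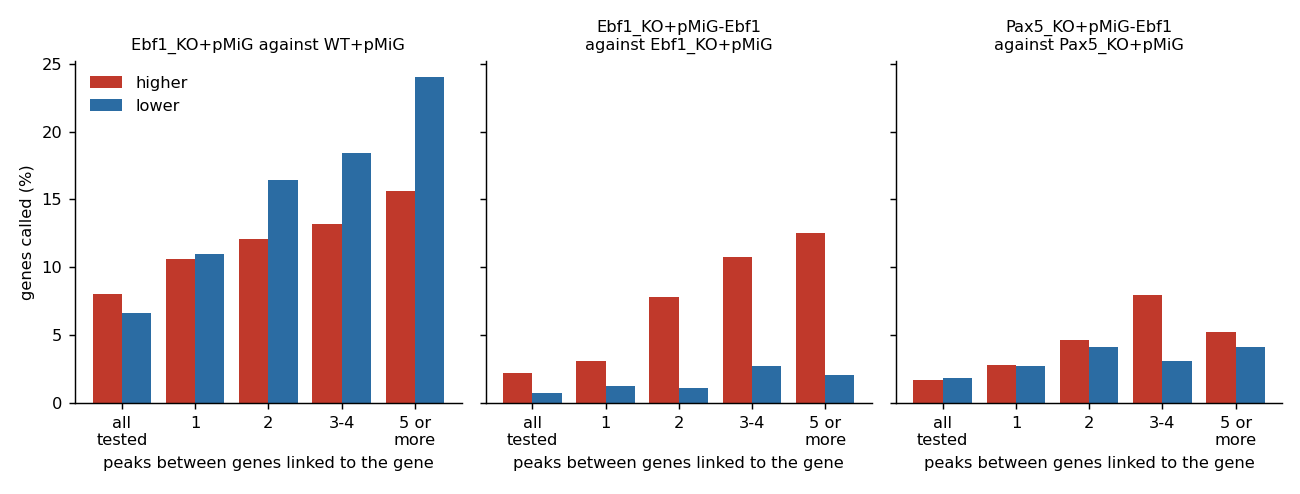
Percent of tested genes called higher (red) or lower (blue) in each comparison, for all genes tested and for genes with 1, 2, 3 or 4, and 5 or more linked peaks between genes. The share that fell in Ebf1_KO+pMiG against WT+pMiG was 6.65% of all genes tested and 24.0% of those with 5 or more peaks. The share that rose was 8.02% and 15.6%.

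Of 24 early B genes, 11 had peaks between genes, 20 peaks in all, and all 11 were tested. On loss of Ebf1, 10 fell and none rose, with a median log2 fold change of -7.95, and Cr2, a complement receptor gene, was the one not called. Over the whole list, linked or not, 20 of 24 fell on loss of Ebf1, 15 rose with the Ebf1 vector in Ebf1-deficient cells, and 4 rose and 5 fell with it in Pax5-deficient cells. The fall of Fcrla, an Fc receptor-like gene at 0.320 and 1.97 CPM in Ebf1_KO+pMiG, against 93.9 and 62.3 CPM in WT+pMiG (adjusted p = 0.021), was lost without any 1 of the 4 libraries (adjusted p up to 0.14). Of these genes 6 rose with the Ebf1 vector in Ebf1-deficient cells, among them Cplx2, Vpreb2, Vpreb3, Cd79b and Cd72, and in Pax5-deficient cells 2 rose (Cplx2 and Cd79b) and 1 fell (Cd72). Cd79b was at 168 and 121 CPM in Pax5_KO+pMiG-Ebf1, against 63.5 and 80.5 CPM in Pax5_KO+pMiG, and its call was lost without either Pax5_KO+pMiG library or without Pax5_KO+pMiG-Ebf1 replicate 1 (adjusted p up to 0.13). Cd72, a receptor that dampens B-cell receptor signals, was at 75.7 and 80.0 CPM in Ebf1_KO+pMiG-Ebf1, against 29.2 and 31.3 CPM in Ebf1_KO+pMiG. In Pax5-deficient cells it was at 4.02 and 8.44 CPM with the Ebf1 vector, against 19.0 and 18.5 CPM without. Its calls were lost on loss of Ebf1 without WT+pMiG replicate 1 or either Ebf1_KO+pMiG library (adjusted p up to 0.13), in Ebf1-deficient cells without any 1 of the 4 libraries (adjusted p up to 0.24) and in Pax5-deficient cells without Pax5_KO+pMiG replicate 2 (adjusted p = 0.075). Cd22, a sialic-acid binding inhibitory receptor, and Enpep fell on loss of Ebf1 but were not called with the Ebf1 vector, with Enpep at 0 in both Ebf1_KO+pMiG-Ebf1 libraries, against 279 and 241 CPM in WT+pMiG. Cplx2 had 10 peaks, the highest number in the list, with scores of 21 to 133 from 69.0 kb before to 46.7 kb past of the start in the count table. By RefSeq 8 of them lay inside Cplx2, one of whose RefSeq promoter windows overlaps the peak printed above.

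Of 24 B-lineage transcription factor genes, 15 had peaks between genes, 44 in all. On loss of Ebf1, 10 fell, Ebf1 among them, and none rose, while over the whole list 14 fell and 1 rose. The fall of Tcf12, an E protein gene, was lost without either WT+pMiG library or Ebf1_KO+pMiG replicate 1 (adjusted p up to 0.18). With the Ebf1 vector Foxo1, Lef1, Myb and Ebf1 rose and Irf8 fell in Ebf1-deficient cells, while Foxo1, Lef1, Myb, Bach2, Egr1 and Ebf1 rose and Id3 fell in Pax5-deficient cells. Over the whole list 7 rose and 1 fell in Ebf1-deficient cells, and 6 rose and 2 fell in Pax5-deficient cells. The rise of Egr1, an immediate early factor, was lost without either Pax5_KO+pMiG library (adjusted p up to 0.11). Lef1, a Wnt-pathway factor with 5 such peaks, was at 1.97 and 1.11 CPM in Ebf1_KO+pMiG, against 382 and 404 CPM in WT+pMiG (log2 fold change -8.02 ± 0.40, SE, adjusted p = 4.3e-09). With the Ebf1 vector it was at 16.9 and 21.4 CPM in Ebf1-deficient cells and at 150 and 207 CPM in Pax5-deficient cells, against 43.6 and 39.9 CPM in Pax5_KO+pMiG, and both rises passed the test (adjusted p = 1.5e-05 and 0.0016). Foxo1, a forkhead factor of early B cells with 4 peaks 69.2 to 88.4 kb from its start, was at 23.0 and 21.3 CPM in Ebf1_KO+pMiG, against 588 and 638 CPM in WT+pMiG. It was at 258 and 236 CPM in Ebf1_KO+pMiG-Ebf1 and at 498 and 471 CPM in Pax5_KO+pMiG-Ebf1, against 190 and 204 CPM in Pax5_KO+pMiG. Its rise was 3.48 ± 0.18 in Ebf1-deficient and 1.30 ± 0.17 in Pax5-deficient cells (SE, adjusted p = 2.1e-08 and 9.6e-04). Bach2, a repressor with 3 peaks, all inside its RefSeq gene, was at 94.1 and 95.3 CPM in Ebf1_KO+pMiG, against 995 and 1268 CPM in WT+pMiG. It was not called with the Ebf1 vector in Ebf1-deficient cells (114 and 139 CPM, adjusted p = 0.50). In Pax5-deficient cells it was at 219 and 310 CPM with the Ebf1 vector, against 120 and 109 CPM without, a call lost without Pax5_KO+pMiG replicate 2 (adjusted p = 0.084). Irf4, an interferon regulatory factor of B cells with 2 peaks, fell to 61.3 and 80.6 CPM in Ebf1_KO+pMiG, against 929 and 731 CPM in WT+pMiG (adjusted p = 4.5e-06). It was at 91.3 and 95.0 CPM in Ebf1_KO+pMiG-Ebf1 (adjusted p = 0.85) and, in Pax5-deficient cells, at 64.1 and 160 CPM with the Ebf1 vector, against 110 and 113 CPM without (adjusted p = 1.0), and neither difference passed the test. Irf8, its relative, had 7 peaks, the most of this list, did not pass the test on loss of Ebf1 (70.1 and 116 CPM, against 89.3 and 69.3 CPM) and fell with the Ebf1 vector to 28.8 and 33.6 CPM in Ebf1_KO+pMiG-Ebf1, by 1.58 ± 0.28 on the log2 scale (SE, adjusted p = 0.0045). That call was lost without Ebf1_KO+pMiG replicate 2 or Ebf1_KO+pMiG-Ebf1 replicate 1 (adjusted p up to 0.10). Id3, an inhibitor of E proteins with 3 peaks, fell on loss of Ebf1 and also fell with the Ebf1 vector in Pax5-deficient cells, to 3.30 and 1.96 CPM, against 12.8 and 16.5 CPM in Pax5_KO+pMiG (log2 fold change -2.50 ± 0.40, SE, adjusted p = 0.0034).

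Of 24 receptor signalling genes 8 fell and 4 rose on loss of Ebf1, linked or not. Of the 12 linked ones, with 34 peaks, 4 fell (Pik3cd, Pik3ap1, Cish and Cxcr4) and 2 rose (Flt3 and Ccr9) on loss of Ebf1. With the Ebf1 vector in Ebf1-deficient cells Pik3cd, Cish and Cxcr4 rose and Ccr9 fell, and in Pax5-deficient cells Ccr9 fell and none rose. Over the whole list 5 rose and 3 fell in Ebf1-deficient cells, and 2 fell and none rose in Pax5-deficient cells. The rise of Pik3cd, the delta catalytic subunit of PI3-kinase, was lost without any 1 of the 4 libraries (adjusted p up to 0.43). Cish, a feedback inhibitor of cytokine signals, was at 164 and 229 CPM in Ebf1_KO+pMiG-Ebf1, against 36.7 and 43.6 CPM in Ebf1_KO+pMiG (log2 fold change 2.29 ± 0.26, SE, adjusted p = 7.3e-05). Cxcr4, the receptor of CXCL12, had 8 peaks from 9.3 to 94.2 kb away, and was at 146 and 144 CPM in Ebf1_KO+pMiG-Ebf1, against 83.2 and 72.8 CPM in Ebf1_KO+pMiG, with its call lost without any 1 of the 4 libraries (adjusted p up to 0.20). Il7r, the interleukin-7 receptor alpha chain, had 3 peaks and was at 210 and 221 CPM in Ebf1_KO+pMiG, against 290 and 306 CPM in WT+pMiG, which did not pass the test (adjusted p = 0.14). Of 23 growth and cell-cycle genes 7 fell and 6 rose on loss of Ebf1. Of the 13 linked ones, with 30 peaks, Cdkn2c, Btg1, Btg2 and Ccnd3 fell and Mycn, Ccnd1 and Cdkn1a rose on loss of Ebf1. Under the Ebf1 vector, Myc, Ccnd3 and Cdkn1a rose and Mycn and Ccnd1 fell in Ebf1-deficient cells, and in Pax5-deficient cells Ccnd3 rose and Mycn fell. Among all 23 growth and cell-cycle genes 4 rose and 3 fell in Ebf1-deficient cells, and 1 rose and 2 fell in Pax5-deficient cells. Cdkn1a, which encodes the cell-cycle inhibitor p21, lost its call on loss of Ebf1 without either WT+pMiG library or Ebf1_KO+pMiG replicate 2 (adjusted p up to 0.29) and with the vector without Ebf1_KO+pMiG replicate 1 or Ebf1_KO+pMiG-Ebf1 replicate 2 (up to 0.37), and Ccnd1, which encodes cyclin D1, lost its call with the vector without any 1 library (up to 0.38). The antiproliferative gene Btg2 had 3 peaks, the strongest with a score of 308, and was at 49.6 and 50.9 CPM in Ebf1_KO+pMiG, against 209 and 204 CPM in WT+pMiG, a fall by 2.04 ± 0.23 on the log2 scale (SE, adjusted p = 1.4e-05). Btg1, its relative, was at 27.1 and 19.3 CPM, against 178 and 241 CPM, and neither gene was called with the Ebf1 vector in either background. Ccnd3, which encodes cyclin D3, was at 402 and 456 CPM in Ebf1_KO+pMiG-Ebf1, against 126 and 171 CPM in Ebf1_KO+pMiG, a rise by 1.53 ± 0.24 (SE, adjusted p = 0.0015), and its 2 peaks lay inside the RefSeq Ccnd3 gene, 36.5 and 40.3 kb upstream of the count table's start. The only linked gene of 10 recombination genes, Dntt, which encodes the DNA polymerase TdT, was not called in any of the 3 comparisons. Over all 10 recombination genes 4 fell and none rose on loss of Ebf1. With the Ebf1 vector 2 rose and none fell in each background.

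**Figure D4:**
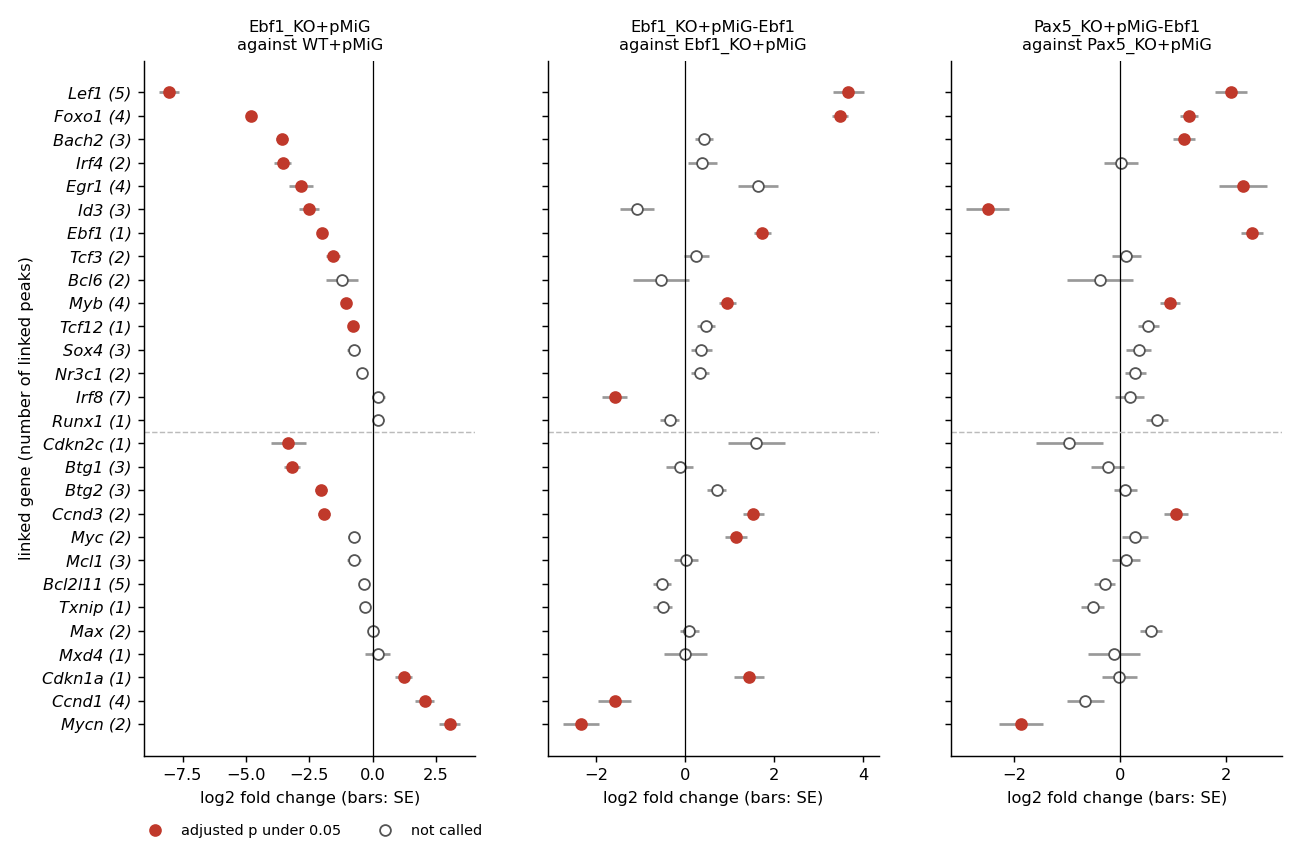
Log2 fold change (points) and SE (bars) of the linked genes among 24 B-lineage transcription factors (above the dashed line) and among 23 growth and cell-cycle genes (below it), with the number of linked peaks in brackets. Filled points passed an adjusted p of 0.05. Lef1 and Foxo1 fell on loss of Ebf1 and rose with the Ebf1 vector in both backgrounds, while Btg1, Btg2, Bach2 and Irf4 fell on loss and were not called in Ebf1_KO+pMiG-Ebf1.

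A high number of peaks did not always go with a called gene. Of the 10 linked genes with most peaks, 9 to 12 each with ties ordered by score, the non-coding 9430078K24Rik and Gm38404 and the gene 5031425F14Rik were too low to be tested. Lrrc32, with 12 peaks, was called in none of the 3 comparisons, at 7.78 and 10.1 CPM in Ebf1_KO+pMiG, against 13.2 and 10.8 CPM in WT+pMiG. Ywhaz, a 14-3-3 gene with 10 peaks, was called in none either, at 800 and 1225 CPM, against 1249 and 1268 CPM. Zbtb18, a repressor gene with 9 peaks, was at 50.1 and 51.2 CPM in Ebf1_KO+pMiG, against 125 and 190 CPM in WT+pMiG, and fell by 1.64 ± 0.25 (SE, adjusted p = 3.0e-04). Runx3, a factor of T and NK cells with 9 peaks, was at 179 and 215 CPM in Ebf1_KO+pMiG, against 76.9 and 63.8 CPM in WT+pMiG, and rose by 1.49 ± 0.20 (SE, adjusted p = 1.0e-04). In Pax5-deficient cells Runx3 was at 151 and 189 CPM with the Ebf1 vector, against 332 and 345 CPM without, and that call was lost without Pax5_KO+pMiG replicate 2 or Pax5_KO+pMiG-Ebf1 replicate 1 (adjusted p up to 0.11). Irf2bp2, a co-repressor gene with 12 peaks, had a call on loss of Ebf1 (adjusted p = 0.036) that was lost without any 1 of the 4 libraries (adjusted p up to 0.23).

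The study's stated subject is the control of Myc, which encodes the growth-promoting MYC factor, and 2 of the peaks were linked to it. One, at chr15:61983683-61984003, lay 1.5 kb upstream of its start with a score of 103, and one, at chr15:61990882-61991202, lay 5.7 kb past the start, beyond the gene end, with a score of 19. Myc was at 308 and 418 CPM in Ebf1_KO+pMiG-Ebf1, against 143 and 187 CPM in Ebf1_KO+pMiG, and rose by 1.14 ± 0.25 on the log2 scale (SE, adjusted p = 0.021). The call was lost without either Ebf1_KO+pMiG library and without Ebf1_KO+pMiG-Ebf1 replicate 2 (adjusted p up to 0.31). Against 299 and 248 CPM in WT+pMiG, Ebf1_KO+pMiG did not pass the test (adjusted p = 0.068), nor did Pax5_KO+pMiG-Ebf1 at 307 and 445 CPM against Pax5_KO+pMiG at 277 and 344 CPM (adjusted p = 0.57).

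The contact profiles of the Myc promoter held 15748 contacts on chromosome 15 in Ebf1-deficient cells and 8147 in wild-type cells, and 22 of the EBF1 peaks between genes lay within 3 Mb of the Myc start. Few contacts fell on the fragments under these peaks themselves, 22 (13.97 per 10000) in Ebf1-deficient and 16 (19.64 per 10000) in wild-type cells. Within 5 kb to either side of each peak there were 688 contacts, or 437 per 10000, in Ebf1-deficient and 327, or 401 per 10000, in wild-type cells, where neighbouring windows can share contacts. Without the 2 peaks linked to Myc, the windows of the other 20 held 252 contacts, or 160 per 10000, in Ebf1-deficient and 157, or 193 per 10000, in wild-type cells. The peak 1731.5 kb past the Myc start, linked by distance to Gsdmc (a gasdermin gene) and with a score of 38, had 66.7 contacts per 10000 in Ebf1-deficient cells (exact 95% binomial interval 54.6 to 80.7), against 97.0 in wild-type cells (76.8 to 121). The peak 301.9 kb past it, linked to H2afy3, had 57.8 per 10000 (46.5 to 70.9), against 46.6 (33.0 to 64.0). The peak 1.5 kb upstream of Myc had 156 per 10000 (137 to 177), against 107 (85.6 to 132), in a window next to the promoter fragment. The 15 peaks more than 2 Mb upstream had 0 to 3.81 per 10000 in Ebf1-deficient cells, against 0 to 6.14 in wild-type cells. The intervals cover counting error only, and with 1 pooled profile per genotype no difference has a replicate check.

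**Figure D5:**
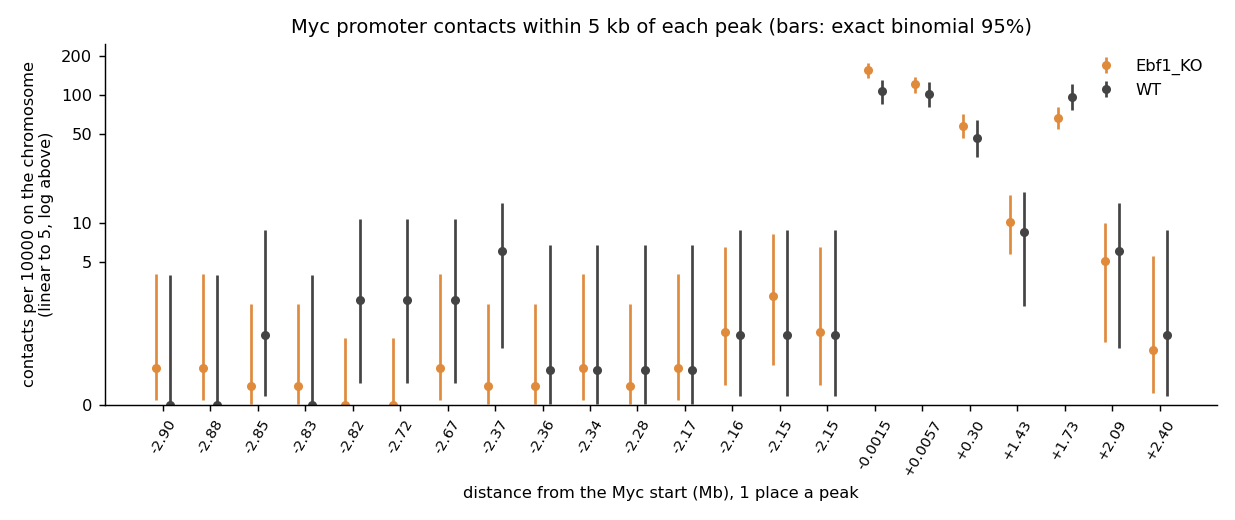
Contacts of the Myc promoter within 5 kb of each of 22 EBF1 peaks between genes, per 10000 contacts on chromosome 15 (linear up to 5, log above), for Ebf1-deficient (orange) and wild-type cells (black), ordered by distance from the Myc start in Mb. Bars are exact 95% binomial intervals. The peak 1731.5 kb past the start stands at 66.7 in Ebf1-deficient cells and 97.0 in wild-type cells, above its neighbours at 1425.8 and 2090.7 kb.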

How the data were processed

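Peaks have the columns of HOMER findPeaks, per the file headers, and 1 list covers both EBF1 samples. Deposited for each peak are its tag count, a tag signal scaled to depth by the authors, a score by the authors and a ratio of tags over the scaled control. These were used only to describe and rank peaks within the list. RNA values are whole-number exon counts per gene, deposited without normalization, made with HOMER per the file headers. The contact profiles deposited hold a count of contacts per fragment with the fragment of the Myc start. The submitters' processing notes name, among other tools, STAR 2.6.0b-1, HOMER 4.8, Bowtie2 2.3.4.2 and 2.3.5 and HiC-Pro 2.11.1, without roles. Whether counting used strand is not given in the sources used here, and overlapping genes may hold the same reads.

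All peaks are 320 bases wide, and the centre decided the class and the nearest start. The 3 peaks on sequences with no gene in the count table were in no class. Counts were scaled by TMM, filtered with filterByExpr and tested with edgeR 4.0.16 in R 4.3.3 (quasi-likelihood F-test, Benjamini-Hochberg over all 14550 genes, threshold 0.05), over 14 libraries in 7 groups of 2. CPM use the TMM-scaled library sizes. SE is the absolute log2 fold change divided by the root of F. The step was tested on simulated data. DESeq2 1.42.0, RLE scaling, no filter, a replicate block and each library left out were alternatives. Floors are 3 counts over a group, and intervals and floors cover counting error only. The unnumbered Pax5_KO+pMiG column was taken as a library of that group, and 0 columns were left unused. The labels do not say that replicates are separate cultures or animals, so p-values measure only how far these samples spread, and that may be technical. Replicate pairs differed by more than counting error, with a chi-square per degree of freedom from 69.9 to 310.

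The genes named are those linked to the 15 peaks with the highest scores, the 10 genes with most peaks, the 8 largest called changes in each direction of each comparison at 10 CPM or more in a group, and linked genes of the lists. Outside these rules, Icosl, Gm14321, Gm36126, Gm31493, Ptpn6 and Grcc10 are named for the printed stretches. Gsdmc and H2afy3, also outside them, are named for the Myc contacts. Any other genes are said to be chosen after their values were seen. One gene is counted but not reported here. The peaks, the linking rule and the lists were chosen with earlier results of these data known. No genome of build mm10 was used here, so sequence was read from the RefSeq promoter table alone.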

Additional observations from a re-analysis of the deposited data

Results flagged for a closer look

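The effect of the Ebf1 vector differed between Ebf1-deficient and Pax5-deficient cells, by edgeR's test of that difference, for 14 of the linked genes in the lists and rules used for naming. Among these the difference of the log2 fold changes, Ebf1-deficient minus Pax5-deficient, was 2.18 for Foxo1, 4.15 for Cd79b, 2.93 for Cd72, 1.74 for Cish, 4.95 for Hes1, 1.91 for Erg (an ETS factor of stem cells and early B cells), 1.51 for Cd93 (a surface marker of early B cells), 6.39 for Gfra2 and -5.52 for Adgre1, which encodes the macrophage antigen F4/80. For genes at 0 in both Ebf1_KO+pMiG libraries the fitted difference depends on the prior count and is no size of effect, and it was 8.15 for Cplx2, 10.69 for Vpreb3, 13.24 for Vpreb2 and 8.78 for Pkp1 (plakophilin 1). Starting levels differed between the backgrounds. Hes1, for example, was at 1.01 and 1.62 CPM in Ebf1_KO+pMiG and at 43.9 and 83.7 CPM in Pax5_KO+pMiG, and Vpreb2 was at 0 and at 63.8 and 68.9 CPM. Of these 14 calls, 8 to 14 were kept when 1 of the 8 libraries was left out, the fewest without Pax5_KO+pMiG replicate 2.

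The libraries with a Pax5 vector were in no comparison. Among the 10 linked genes with most peaks, 2 stood over 2 times above the control in both of them in Pax5-deficient cells. Lrrc32 was at 182 and 176 CPM in Pax5_KO+pMiG-Pax5, against 44.5 and 30.9 CPM in Pax5_KO+pMiG, a ratio of means of 4.75. Cplx2 was at 116 and 126 CPM, against 6.87 and 8.13 CPM, a ratio of 16.1. In Ebf1-deficient cells with the Pax5 vector Lrrc32 was at 50.5 and 47.1 CPM, against 7.78 and 10.1 CPM in Ebf1_KO+pMiG. Cplx2 stayed at 0 and 0.0647 CPM there, against 0 in both Ebf1_KO+pMiG libraries.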

How the results depend on the processing

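The number of linked genes called kept within 1.5 times of that reported under RLE scaling, the replicate block, links to tested genes only, peaks at 1 to 50 kb, scores at or above the median of the list, whole peaks outside genes and, chosen after seeing the data, peaks also outside RefSeq genes and over 1 kb from RefSeq starts. With no filter on low counts 265 linked genes were called with the Ebf1 vector in Ebf1-deficient cells, against 175, 356 in Pax5-deficient cells, against 183, and 101 for the difference between them, against 37. DESeq2 called 380 and 84 for the last 2 comparisons. The calls on loss of Ebf1 numbered 646, and 420 to 503 with 1 library left out. Leaving out 1 library gave 87 to 104 with the Ebf1 vector in Ebf1-deficient cells, 51 to 482 in Pax5-deficient cells and 19 to 179 for the difference, and the cause was not tested. The share of all genes called was taken in the main fit only, so the counts of these refits have no such share beside them. No named call changed direction under any of these. The peaks between genes numbered 3094 with a score of at least the median of the list. Widening the contact windows by 5 kb gave 688 contacts in Ebf1-deficient and 327 in wild-type cells. The share of windows with the core was 29.8% with at least 100 bases in a peak, chosen after seeing the data. The motif alternatives planned for whole peaks were not run without a genome.

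The labels' replicate numbers were not taken as pairing in the main fits. Deviations of same-numbered libraries correlated from -0.059 to 0.013 between WT+pMiG and the other groups. Among those other groups every correlation was positive, from 0.076 to 0.236, and its cause was not tested. The column headers carry a tag, of a meaning they do not state, that gives every group 1 library of each kind and follows the replicate numbers. With this replicate block as a term, which ended no call of a named gene, 741, 211, 249 and 45 linked genes were called in the comparisons above. Linked genes that did not pass the filter on low counts were not tested, so nothing is said of them at this depth.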
